A study of Mus musculus with 22 samples.

Results

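Gpm6a and Gpm6b were followed at the level of their transcripts in the mRNA of 6 mouse nervous system cell types. They were taken by symbol and make up 2 of the 55385 genes, and 13 of the 142552 transcripts, in the deposited tables. Gpm6a (ENSMUSG00000031517.8) lies on chromosome 8 from 54954843 to 55060871 of GRCm38, on the plus strand, and Gpm6b (ENSMUSG00000031342.17) on chromosome X from 166238911 to 166388988, also on the plus strand. The pair was picked because estimates from these same libraries had shown the transcript Gpm6b-206 high in layer V neurons and nearly absent from astrocytes. All levels and transcript shares of both genes are therefore given as descriptions, with no test.

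The encoded proteins, M6A and M6B, belong to the proteolipid protein family. Both are small proteins that cross the membrane several times and keep both ends in the cytoplasm. M6A is a neuronal surface protein known for its part in filopodia and neurite outgrowth, whereas M6B is known from neurons, astrocytes and oligodendrocytes. Gpm6b uses alternative start exons, an optional coding exon and alternative ends, so its transcripts encode proteins that differ at both cytoplasmic tails.

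In the RiboTag mice used, a Cre recombinase switches the ribosomal protein RPL22 to an epitope-tagged form in one cell population, and the mRNA bound to tagged ribosomes is pulled down from whole tissue. All mice were 6 weeks old and carried Rpl22 Fl/+, and the inducible Cre lines (astrocytes and microglia, per the methods) received tamoxifen by oral gavage. Dentate gyrus granule cells came from hippocampus and layer V pyramidal neurons from cortex, both by Rbp4-Cre. Cerebellar granule cells came from cerebellum by Gabra6-Cre, and inhibitory interneurons from hippocampus by Dlx6a-Cre, with tissue of 2 mice pooled per library. Cortical astrocytes were tagged by the driver labelled Aldh1-cre (an Aldh1l1 driver in the methods) and cortical microglia by Tmem119-cre. Each cell type had 3 biological replicates, of either sex, and interneuron replicates 1 and 2 are labelled as pooled male and female. A cell type here is what its Cre driver marks, and fewer cells and less RNA per cell cannot be told apart in such bulk samples.

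There were 22 libraries for the 18 replicates, since 4 replicates were sequenced in both of 2 batches. The batch 1 library was used for those 4, and all interneuron and microglia libraries were of batch 2. The 18 libraries held 38270477 to 71440915 estimated counts, of which 2659 to 126667 belonged to Gpm6a and 3694 to 203750 to Gpm6b. Defining markers sat where the labels put them for Prox1 (dentate gyrus), Gabra6 (cerebellar granule cells), Gad1 and Gad2 (interneurons) and for the 5 astrocyte and 5 microglial markers, each of which was higher in every library of its own cell type than in every other library. Of the 2 layer V markers, Fezf2 met this and Bcl11b did not, being highest in dentate gyrus granule cells. RNA of other cells was present in every pull-down. The summed TPM (a transcript level scaled for transcript length and library depth) of 5 astrocyte markers was 3.39 to 4.41% of the astrocyte mean in microglia and 0.346 to 1.39% of it in the neuronal libraries. The 8 oligodendrocyte markers were all highest in interneurons, where they summed to 2087 to 2198 TPM, against 842.1 to 1013 TPM in astrocytes, 448.7 to 514.5 TPM in microglia and 96.03 to 309.8 TPM in the other neurons. The batch 2 library of layer V neuron replicate 1 is labelled male while its batch 1 library is labelled female, and both had the Xist and Y-linked levels of a female.

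Gpm6b had 12 transcripts in the tables: 9 annotated as protein coding, 2 as targets of nonsense-mediated decay (Gpm6b-210 and Gpm6b-212) and 1 as a retained intron (Gpm6b-211). The 9 coding transcripts carry 6 different coding sequences, built from 3 choices. The exon sequences are shown because every result turns on which of them a transcript translates. They were read from the GRCm38 genome at the exon positions of GENCODE, all on the plus strand, 5′ to 3′, with start or stop codons in capitals.

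The choice at the C-terminus is between a last coding exon with 26 codons before the stop (chrX:166385391-166385471, translated in Gpm6b-202, Gpm6b-203, Gpm6b-204, Gpm6b-205, Gpm6b-208 and Gpm6b-209) and one further downstream with 49 codons before the stop (chrX:166386952-166387101, translated in Gpm6b-201, Gpm6b-206 and Gpm6b-207). The short C-terminus transcripts also contain the bases of the longer one, behind their stop codon as untranslated sequence. The ends are called the short and the long C-terminus here. The last coding exon of Gpm6a (chr8:55058777-55058929) is set beside them.
short C-terminus exon of Gpm6b: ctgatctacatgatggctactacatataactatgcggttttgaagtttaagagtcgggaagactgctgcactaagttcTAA
long C-terminus exon of Gpm6b: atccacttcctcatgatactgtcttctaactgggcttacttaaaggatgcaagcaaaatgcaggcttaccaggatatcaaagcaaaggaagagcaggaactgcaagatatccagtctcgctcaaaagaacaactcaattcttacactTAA
last coding exon of Gpm6a: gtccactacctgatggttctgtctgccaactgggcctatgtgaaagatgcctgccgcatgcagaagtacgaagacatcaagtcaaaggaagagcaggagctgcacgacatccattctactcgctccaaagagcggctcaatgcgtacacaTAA

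In an end-to-end alignment, the last coding exon of Gpm6a was identical to the long exon of Gpm6b at 114 of 153 aligned columns (74.5%) and to the short exon at 66 of 153 (43.1%), the latter being bounded by the short exon's 81 bases. The 5 coding exons before it were identical between the genes at 50.0 to 72.7% of columns. The lengths alone placed the short exon below the long one in this measure, so the 2 values are not ranked.

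The choice at the N-terminus is between start exons 105720 bases apart. The upstream exon (Gpm6b-201, Gpm6b-208 and Gpm6b-209) contributes only the start codon and 1 further base, so that the protein begins almost directly with the shared part. The downstream exon (the other 9 transcripts) contributes 61 coding bases at chrX:166345021-166345081. Transcripts from the downstream start can also include a cassette exon of 120 bases, or 40 codons (chrX:166353565-166353684, in Gpm6b-202, Gpm6b-205, Gpm6b-207 and Gpm6b-210).
coding part of the downstream start exon: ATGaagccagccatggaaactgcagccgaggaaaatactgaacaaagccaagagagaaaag
cassette exon: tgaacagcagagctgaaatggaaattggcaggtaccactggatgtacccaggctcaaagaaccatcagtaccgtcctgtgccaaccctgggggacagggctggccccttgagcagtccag

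The resulting proteins have 246 codons (upstream start, short), 269 (upstream, long), 265 (downstream, short), 288 (downstream, long), 305 (downstream with cassette, short) and 328 (downstream with cassette, long). Short C-terminus transcripts further differ in their tail, where an intron behind the stop codon is either kept (Gpm6b-202, Gpm6b-203 and Gpm6b-209) or removed (Gpm6b-204, Gpm6b-205 and Gpm6b-208). Gpm6a had 1 transcript in the tables, Gpm6a-201 with 278 codons, so its share was 100% in every library and no choice could be measured. RefSeq lists 3 Gpm6a transcripts with 2 start positions on the same build, and these were not analysed here.

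**Figure D1:**
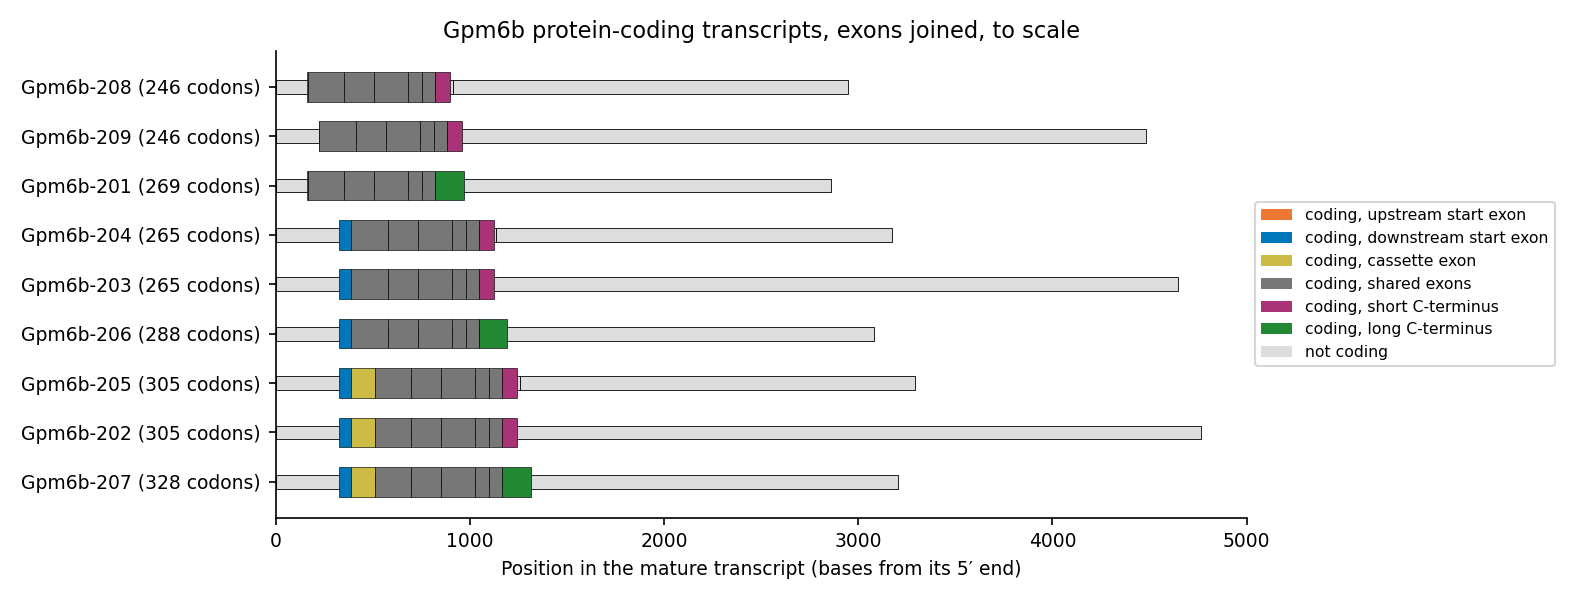
Exon maps of the 9 protein-coding Gpm6b transcripts with introns removed, drawn to scale along the mature RNA (x axis, bases from the 5′ end; thick boxes are coding). The short C-terminus (purple) and long C-terminus (green) follow the same 5 shared exons, the cassette exon (yellow) adds 120 bases, and the 4 coding bases of the upstream start exon are barely visible at this scale.

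The start exons and the alternative last coding exons are at least 656 bases apart in the mature RNA. The median difference between transcript length and effective length, which tracks the mean fragment length, was 187.2 to 213.2 bases per library, so a typical fragment covered one choice and not both. Since all 9 coding transcripts contain the bases of the long C-terminus exon, reads inside it do not separate the ends. Reads on the short exon, or across the junction into either exon, do. The combination of choices in a named transcript rests on kallisto's estimate.

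At the gene level, Gpm6a was high in all cell types but microglia, and Gpm6b was high in astrocytes. Cerebellar granule cells held the most Gpm6a, at 1825, 1926 and 1921 TPM in their 3 libraries. Astrocytes followed at 953.0, 1023 and 892.7 TPM and dentate gyrus granule cells at 887.3, 912.2 and 860.2 TPM, and the ranges of these 2 cell types overlapped. Layer V neurons had 794.7, 786.4 and 821.0 TPM and interneurons 565.5, 679.5 and 625.2 TPM. Microglia stood apart at 37.2, 40.7 and 36.5 TPM, so that the cerebellar granule cell mean was 49.6-fold and the interneuron mean 16.3-fold that of microglia. Apart from astrocytes and dentate gyrus granule cells, neighbours in this order did not overlap.

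Gpm6b had another order. Its astrocyte libraries held 1697, 1646 and 1567 TPM, a mean of 1637 ± 65.8 TPM (SD, n = 3). Layer V neurons came next with 287.6, 274.2 and 298.5 TPM, and dentate gyrus granule cells had 235.7, 232.5 and 233.6 TPM. Interneurons (97.6, 114.1 and 113.5 TPM) and cerebellar granule cells (103.0, 104.1 and 104.1 TPM) overlapped, and microglia were lowest at 44.7, 50.2 and 55.2 TPM. The astrocyte mean was 5.71-fold that of layer V neurons, 15.8-fold that of cerebellar granule cells and 32.7-fold that of microglia. The highest neighbour of astrocytes was thus far below them, and all other neighbours except interneurons and cerebellar granule cells were apart.

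**Figure D2:**
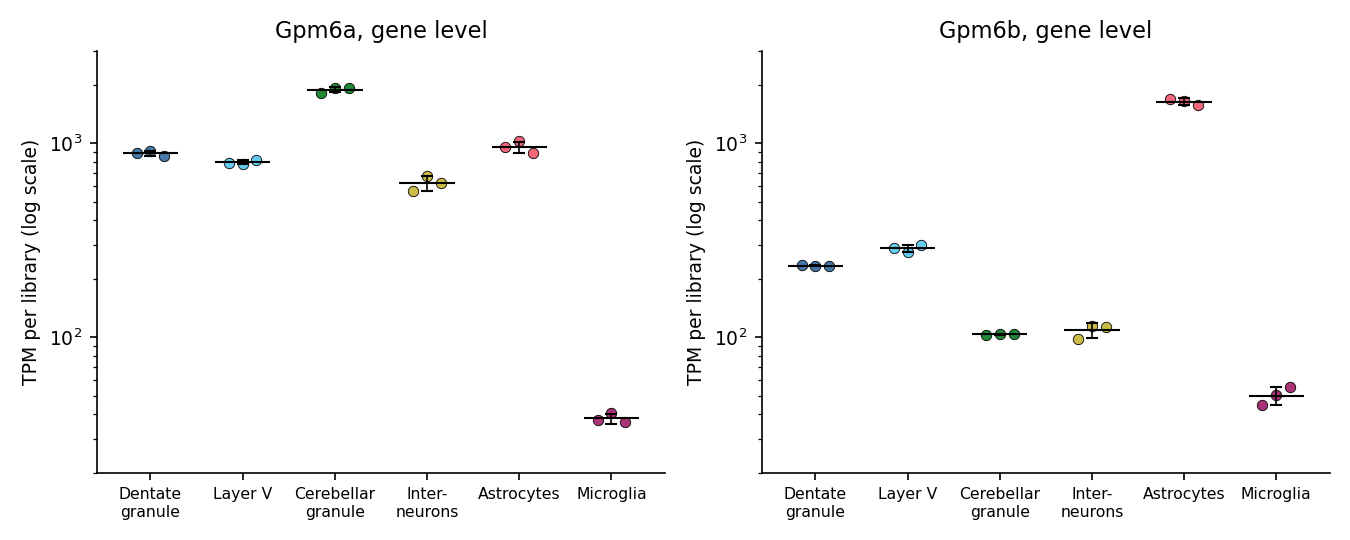
Gene TPM (y axis, log scale) of Gpm6a (left) and Gpm6b (right) in the 6 cell types; points are the 3 libraries, lines the mean and bars the SD. Gpm6a was lowest in microglia at 36.5 to 40.7 TPM, and Gpm6b was highest in astrocytes at 1567 to 1697 TPM.

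The ratio of Gpm6a to Gpm6b TPM within a library separated the cell types. It was 18.2 ± 0.441 in cerebellar granule cells, 5.75 ± 0.227 in interneurons, 3.79 ± 0.123 in dentate gyrus granule cells and 2.79 ± 0.0645 in layer V neurons (SD, n = 3 each). It was under 1 in both glial types, at 0.584 ± 0.0324 in astrocytes and 0.769 ± 0.0935 in microglia. Gpm6b is X-linked, and its levels did not sort by labelled sex in the same direction in all cell types. The female astrocyte library had 1697 TPM against 1646 and 1567 TPM in the males. Females were lower in microglia (44.7 against 50.2 and 55.2 TPM), layer V neurons (287.6 and 274.2 against 298.5 TPM) and, narrowly, cerebellar granule cells (103.0 against 104.1 and 104.1 TPM). In dentate gyrus granule cells the male (233.6 TPM) lay between the females (235.7 and 232.5 TPM).

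The C-terminus differed most between cell types. In layer V neurons the long C-terminus made up 93.7, 92.9 and 93.5% of Gpm6b TPM, and in dentate gyrus granule cells 90.0, 90.6 and 88.9%. Cerebellar granule cells had 81.5, 82.3 and 80.7%. Interneurons had 58.0, 54.4 and 64.0% and microglia 46.0, 42.2 and 35.0%. In astrocytes it made up 5.92, 6.06 and 4.67%. No cell type's range overlapped that of its neighbour in this order, although interneurons and microglia spread more widely, with SDs of 4.82 and 5.57 points against 0.431 to 0.837 points in the others. Resequencing the same replicate changed the share by at most 1.01 points in 4 replicates. In batch 2 alone, the single libraries of layer V neurons (93.5%), dentate gyrus granule cells (87.9%) and cerebellar granule cells (80.9%) lay above the 3 interneuron libraries (54.4 to 64.0%), the 3 microglia libraries (35.0 to 46.0%) and the astrocyte library (6.10%).

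As levels, the picture was one of a short C-terminus found mainly in astrocytes and a long one found in the libraries of all types. Short C-terminus transcripts summed to 1593, 1545 and 1492 TPM in the astrocyte libraries and to between 17.1 and 50.9 TPM in the libraries of the other 5 cell types. Long C-terminus transcripts summed to 100.5, 99.7 and 73.2 TPM in astrocytes, to 269.6, 254.8 and 279.3 TPM in layer V neurons and to 212.2, 210.6 and 207.8 TPM in dentate gyrus granule cells. The layer V mean was 293.9% and the dentate gyrus mean 230.7% of the astrocyte mean of the long form. Cerebellar granule cells, at 83.9, 85.7 and 84.0 TPM, fell inside the astrocyte range, and interneurons had 56.6, 62.1 and 72.6 TPM and microglia 20.5, 21.2 and 19.3 TPM. Astrocyte libraries therefore held a higher long C-terminus level than those of interneurons or microglia, while its share of their Gpm6b was the lowest. The 4 neuronal markers summed to 748.1 to 986.2 TPM in the astrocyte libraries, or 9.98 to 13.2% of their neuronal mean. What part neuronal RNA had in the long C-terminus level of the astrocyte libraries was not tested.

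The small short C-terminus levels outside astrocytes can be set beside the astrocyte markers in the same libraries. The short form was at 1.11 to 1.17% of the astrocyte mean in layer V neurons, where the 5 summed markers were at 0.889 to 0.894%. Most of that layer V sum was Aldh1l1, at a mean of 27.6 TPM, and without it the other 4 markers were at 0.327 to 0.345%, a sum chosen after its values were seen. The short form was at 1.36 to 1.49% in dentate gyrus granule cells (markers 0.595 to 1.39%). In cerebellar granule cells it was at 1.18 to 1.28% (markers 0.346 to 0.382%) and in interneurons at 2.57 to 3.30% (markers 0.838 to 1.10%). Microglia were the cell type in which the markers exceeded it, with the short form at 1.38 to 2.00% and the markers at 3.39 to 4.41%. Gpm6a in microglia stood at 3.82 to 4.26% of the astrocyte mean, inside the range of the markers, whereas the long form stood at 21.2 to 23.2%, above it. The astrocyte mean is not the highest for the long form, which had means of 267.9 TPM in layer V neurons, 91.1 TPM in astrocytes and 20.3 TPM in microglia. The 4 neuronal markers in microglia were at 4.68 to 5.23% of their neuronal mean. All 5 astrocyte markers were above 0 in every library. What part RNA of astrocytes or neurons, or of oligodendrocytes in the interneuron libraries, had in these levels was not tested.

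**Figure D3:**
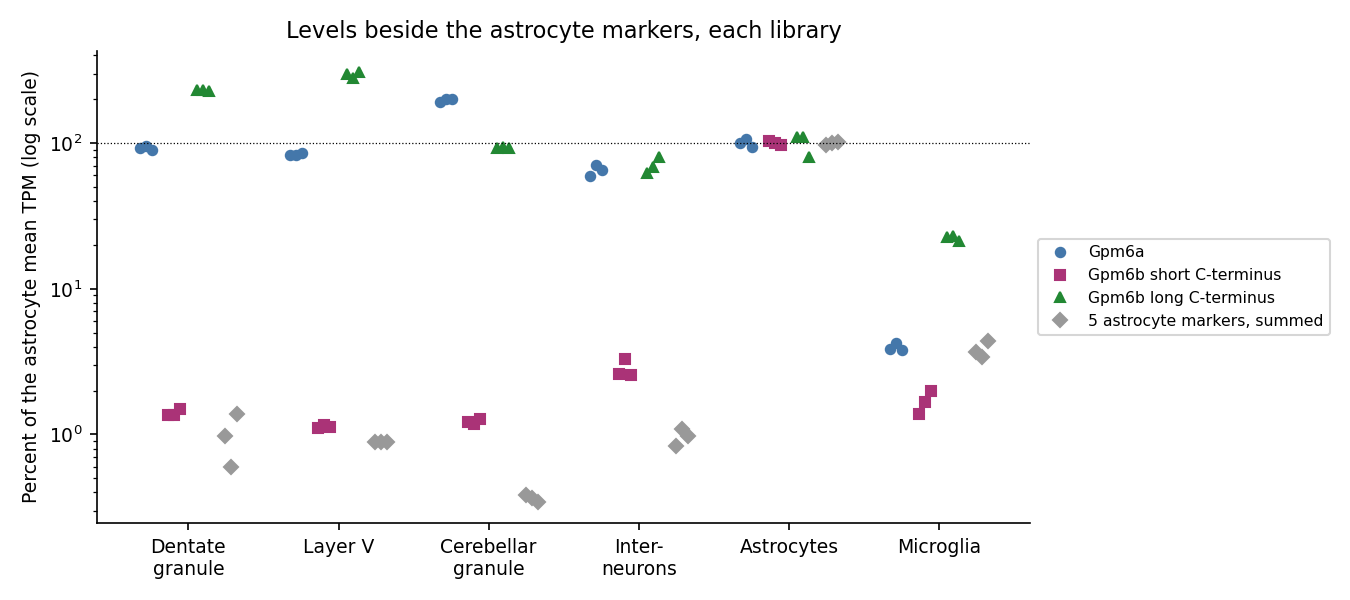
Gpm6a, short and long C-terminus Gpm6b and the sum of 5 astrocyte markers, each as percent of its own astrocyte mean TPM (y axis, log scale; dotted line, 100%), in each of the 3 libraries per cell type. The short form lies at 1.11 to 3.30% outside astrocytes, above the marker range in layer V neurons, cerebellar granule cells and interneurons and below it in microglia, and the long form reaches 279.6 to 306.4% in layer V neurons.

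The start exon followed a different order from the C-terminus. Upstream-start transcripts made up 53.6, 55.0 and 53.7% of Gpm6b TPM in astrocytes, and 7.38, 9.81 and 7.78% in cerebellar granule cells. The other types lay between: interneurons at 39.8, 41.4 and 34.2%, layer V neurons at 37.9, 37.7 and 34.7%, dentate gyrus granule cells at 35.5, 35.0 and 35.2% and microglia at 33.6, 32.1 and 29.1%. Interneurons overlapped layer V neurons, and layer V neurons overlapped dentate gyrus granule cells. Resequencing changed this share by 0.370 to 3.03 points. Dentate gyrus and cerebellar granule cells, both excitatory granule neurons with over 80% long C-terminus, thus differed in start exon by 26.9 points.

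Cassette inclusion varied less. Of the TPM from the downstream start, 14.3, 14.7 and 14.6% held the cassette exon in astrocytes. The means of the other 5 types lay between 23.5% in layer V neurons and 26.9% in interneurons, each overlapping its neighbour. This share was the least steady on resequencing, moving by up to 7.11 points in cerebellar granule cell replicate 3.

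**Figure D4:**
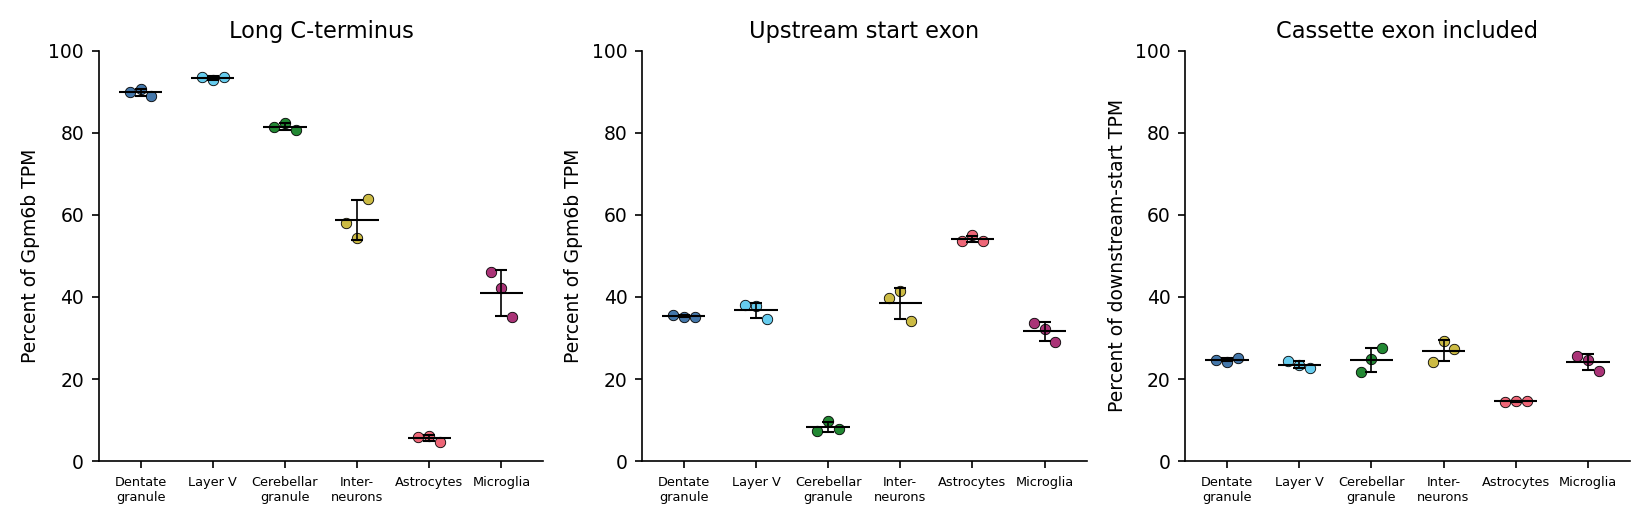
Percent of Gpm6b TPM with the long C-terminus (left) and the upstream start exon (middle), and percent of downstream-start TPM with the cassette exon (right); points are libraries, lines the mean and bars the SD of 3. Layer V neurons (93.4%) and astrocytes (5.55%) mark the ends for the C-terminus, astrocytes (54.1%) and cerebellar granule cells (8.32%) for the start, and only astrocytes (14.5%) stand apart for the cassette.

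Among single transcripts, Gpm6b-206 (downstream start, long C-terminus, 288 codons) led in all libraries of the 3 excitatory types. It held 46.6, 47.6 and 46.4% of Gpm6b TPM in dentate gyrus granule cells, 45.8, 46.1 and 48.9% in layer V neurons and 59.96, 51.87 and 53.94% in cerebellar granule cells. In astrocytes it was at 0.0228, 0 and 0%, from at most 31.3 estimated counts in a library. Interneurons (23.5, 16.7 and 29.9%) and microglia (19.5, 19.4 and 14.4%) overlapped between these ends. Gpm6b-207, the same with the cassette, ran alongside at 18.8 to 20.7% in cerebellar granule cells, 15.2 to 15.7% in dentate gyrus granule cells and 14.3 to 14.8% in layer V neurons, against at most 0.00203% in astrocytes.

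Gpm6b-201 (upstream start, long C-terminus, 269 codons) was the second transcript of dentate gyrus granule cells (27.7, 27.7 and 26.9%) and layer V neurons (33.2, 32.5 and 30.2%). It led in interneuron replicates 1 and 2 (28.4 and 31.9%) but not in replicate 3 (23.97%), where Gpm6b-206 led by 5.96 points. Cerebellar granule cells had 2.71, 9.78 and 7.52%. In astrocytes it was estimated at 5.90, 6.06 and 4.67%, which was nearly all of their long C-terminus, since Gpm6b-206 and Gpm6b-207 were near 0 there. Of the TPM from the downstream start, the long C-terminus made up 97.9% in layer V neurons, 97.7% in dentate gyrus granule cells and 0.0179% in astrocytes as means. Of that from the upstream start it made up 86.9, 77.8 and 10.2% in the same order. Cerebellar granule cells show how uncertain the combinations are when a start is rare: 36.7, 99.7 and 96.7% of their upstream-start TPM was long, while their overall long share varied by under 2 points. Neither start was rare in astrocytes, yet Gpm6b-206 was estimated at 0.387, 0 and 0 TPM there. It averaged 81.8 TPM over the neuronal libraries, and the neuronal markers in the astrocyte libraries were at 9.98 to 13.2% of their neuronal mean. Whether kallisto assigned long C-terminus reads to the wrong start in astrocytes was not tested.

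Gpm6b-203 (downstream start, short C-terminus, 265 codons) led in every astrocyte library at 39.6, 38.3 and 39.4%. It also led in the microglia libraries at 20.9, 21.5 and 25.8%, though in replicate 1 by 0.677 points over Gpm6b-201. Interneurons had 18.8, 21.5 and 14.8% and cerebellar granule cells 12.30, 12.99 and 10.05%. In layer V and dentate gyrus neurons its estimate was under 1 count in each of 3 libraries of either type. Gpm6b-202, which adds the cassette, had the same gap: under 1 count in these 6 libraries, and cell type means of 2.66 to 9.83% in the other types. Gpm6b-209, with the same end behind the upstream start, averaged 12.3 TPM in layer V and 17.2 TPM in dentate gyrus neurons. Whether kallisto gave downstream-start reads of the short C-terminus to Gpm6b-209 there was not tested.

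Gpm6b-208 and Gpm6b-209 encode the shortest protein, of 246 codons, and differ only in their untranslated parts. Gpm6b-208, with the tail intron removed, held 28.1, 27.7 and 27.8% in astrocytes and had means of 0.480 to 4.14% elsewhere. Gpm6b-209, with the intron kept, held 19.6, 21.2 and 21.3% in astrocytes, 10.9, 12.1 and 5.31% in microglia, 7.46, 6.59 and 7.97% in dentate gyrus granule cells, 8.92, 5.72 and 8.96% in interneurons and 4.195, 4.711 and 4.011% in layer V neurons. In cerebellar granule cells it was at 1.94, 0 and 0%. Together these transcripts gave the 246-codon form 47.7, 48.9 and 49.1% of astrocyte Gpm6b, so that both it and the 265-codon form were abundant in astrocytes.

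The kept tail intron made up 70.1 to 70.8% of short C-terminus TPM in astrocytes and had cell type means of 70.2 to 86.3% elsewhere. Gpm6b-211, the retained intron transcript, was at 5.87, 6.02 and 8.85% in microglia and at cell type means of 0.0722 to 0.768% in the other types. As a level this was 2.62, 3.02 and 4.89 TPM in microglia, against 2.14, 0.436 and 2.41 TPM in dentate gyrus granule cells and 2.49, 0.790 and 0.345 TPM in astrocytes. The remaining 4 transcripts (Gpm6b-204, Gpm6b-205, Gpm6b-210 and Gpm6b-212) had cell type means of at most 4.40%.

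**Figure D5:**
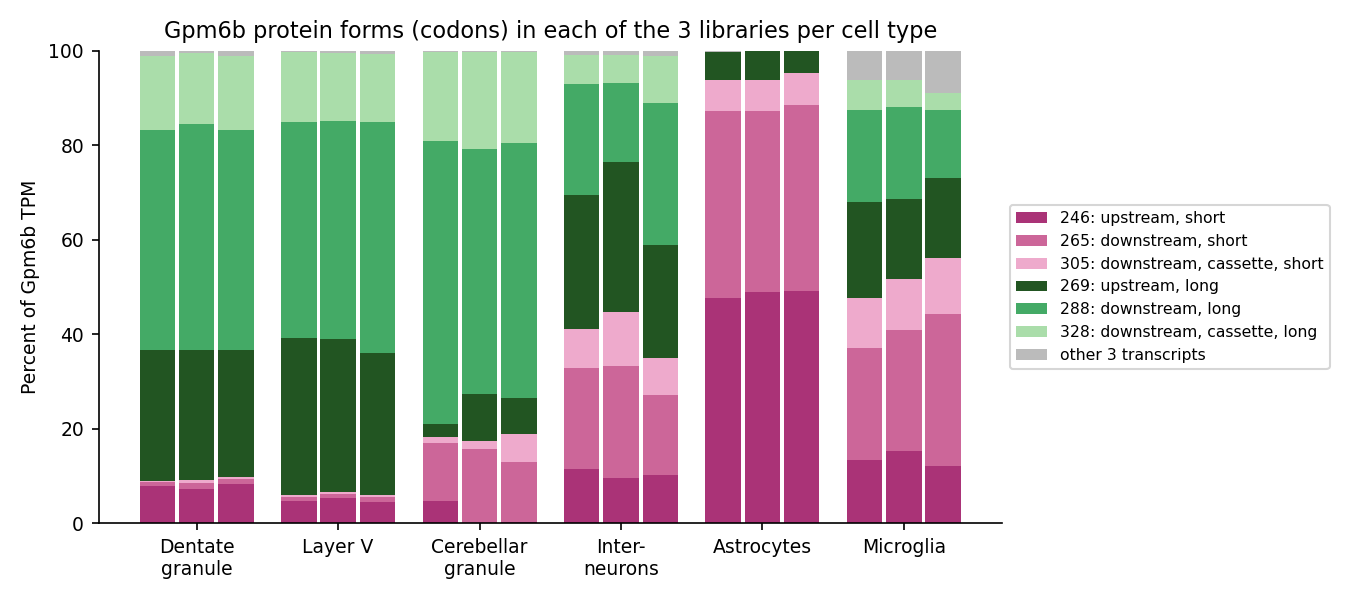
Share of Gpm6b TPM (y axis, percent) of the 6 protein forms, named by their number of codons with start exon and C-terminus, in each of the 18 libraries; grey is the sum of the 3 transcripts without a full-length coding sequence. Long forms (green) fill 80.7 to 93.7% of the 9 excitatory neuron libraries, and short forms (purple) 93.8 to 95.2% of the astrocyte libraries.

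The background over the whole table was taken from genes with at least 2 transcripts and at least 1 TPM in every library compared. Between all 12 neuronal libraries and the 3 astrocyte libraries, 1.89% of 65691 transcripts had shares that did not overlap and differed in mean by at least 20 percentage points. Of the 12 Gpm6b transcripts 3 met this (Gpm6b-203, Gpm6b-206 and Gpm6b-208). No overlap alone was met by 10.1% of transcripts and 6 of the 12. Between layer V neurons and astrocytes the stricter rule was met by 5.11% of 72067 transcripts and 4 of the 12, which were the same 3 and Gpm6b-201, and no overlap alone by 37.9% and 11 of the 12. The leading transcript differed between every neuronal and every astrocyte library in 1.77% of 9717 genes, and between every layer V and astrocyte library in 7.4% of 10893, Gpm6b among them in both. At least 1 transcript met the stricter rule in 8.26% and 21.5% of these genes. These contrasts were used to choose the gene, so nothing is read from the counts.

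The promoter windows of the start exons (300 bases around the annotated start, most of them before it) are shown because start use ranged from 8.32% upstream in cerebellar granule cells to 54.1% in astrocytes. The upstream window (chrX:166238693-166238992) is RefSeq's promoter of Gpm6b on GRCm38, and the downstream window (chrX:166344442-166344741) was read from the same genome. CG dinucleotides are in capitals.
upstream promoter: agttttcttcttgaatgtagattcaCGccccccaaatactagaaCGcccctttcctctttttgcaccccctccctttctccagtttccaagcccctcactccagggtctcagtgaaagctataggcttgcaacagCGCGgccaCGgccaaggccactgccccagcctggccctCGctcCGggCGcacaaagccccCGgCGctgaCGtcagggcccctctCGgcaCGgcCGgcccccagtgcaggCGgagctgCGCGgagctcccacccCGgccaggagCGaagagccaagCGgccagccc
downstream promoter: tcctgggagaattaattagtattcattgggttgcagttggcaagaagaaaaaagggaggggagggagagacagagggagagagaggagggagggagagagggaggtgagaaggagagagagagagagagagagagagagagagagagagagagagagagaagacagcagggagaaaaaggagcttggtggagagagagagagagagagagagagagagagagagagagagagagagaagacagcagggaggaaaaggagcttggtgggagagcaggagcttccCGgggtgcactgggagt

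The upstream window held 20 CG dinucleotides and a GC content of 65.3%, and the downstream window 1 CG dinucleotide and 53.0%, much of it in runs of alternating G and A. Over 32851 RefSeq promoter windows of the same length the medians were 7 CG dinucleotides and 52.7% GC. A window with fewer CG dinucleotides was found for 73.5% of promoters in the case of the upstream start and for 5.4% in that of the downstream start. TATAAA was in neither on either strand. Counted on the given strand only, it was in 8.3% of all windows.

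Short motifs were also counted within 300 bases of the alternative exons, on the strand that reads as the transcript. TGCATG, the letters that RBFOX splicing proteins are known to bind, occurred once after the short C-terminus exon and not before it, nor near the cassette exon nor before the long C-terminus exon. It lay within 300 bases after 11.6% and before 9.9% of 6172 internal exons of chromosome X. CTCTCT, a pyrimidine motif of the kind PTB proteins bind, was absent from these windows and was found before 15.1% and after 13.7% of the same exons. These matches describe letters only.

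The genes whose levels ran most like each member were ranked by Pearson's r of log2(TPM + 1) over the 18 libraries, among 15744 genes. Libraries of a cell type share their source, so r mainly reflects 6 cell type levels. For Gpm6a, the 5 genes with the highest r included Lgalsl (r = 0.995), Mpv17l (0.988), Arxes2 (0.975) and Wnk2 (0.971). Lgalsl had means of 96.8 TPM in cerebellar granule cells, 70.2 TPM in astrocytes and 10.4 TPM in microglia. For Gpm6b they included Mt3 (r = 0.963), a brain metallothionein, Tmem254b (0.962), Nim1k (0.961) and Fjx1 (0.952). Mt3 had means of 3629 TPM in astrocytes, 600.5 TPM in layer V neurons and 135.0 TPM in microglia. The members themselves correlated at r = 0.505.

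Genes of related function were tested at the gene level by edgeR's quasi-likelihood test, with p adjusted over all 20524 genes tested. The comparison of the mean of 4 neuronal types with the mean of 2 glial types called 36.4% of genes higher in neurons and 46.8% higher in glia, 83.3% in all. Its p measures the scatter between libraries of a cell type, not the spread among the types averaged. An outlying cell type alone can therefore give a call.

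Of 11 partners of the M6 proteins and growth cone proteins, 10 had enough counts to be tested, 6 were higher in neurons and 4 in glia. Those higher in neurons included Stmn2, a tubulin-binding growth cone protein (log2 fold change 3.15), Gap43, a growth-associated membrane protein (2.10), and Rufy3, an adaptor in axon specification (1.96). By their means Stmn2, Gap43 and Rufy3 were higher in every neuronal type than in both glial types. Not all 6 were. The 4 higher in glia were Marcks, Basp1, Marcksl1 and Coro1a, with log2 fold changes of -0.65 to -0.24. None of them was higher in both glial types than in all neuronal types. Marcks and Coro1a had means of 506.5 and 632.6 TPM in microglia. In astrocytes they had 52.5 and 33.3 TPM, below every neuronal type. Basp1 and Marcksl1, both membrane-bound actin regulators, were low in cerebellar granule cells alone among the neurons, at 4.51 and 0.877 TPM against 576.3 to 1270 TPM and 165.8 to 355.5 TPM in the other types of neuron. Both glial types lay below these other neurons. Basp1 had 155.3 TPM in astrocytes and 482.3 TPM in microglia, and Marcksl1 83.5 and 55.1 TPM. Slc6a4, the serotonin transporter, was not tested and had at most 0.0931 TPM in a library.

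Of the 9 palmitoylation enzymes, which add or remove the lipid that many proteolipid family members carry, 7 were higher in neurons and 2 in glia. Zdhhc2 (log2 fold change 2.14) and Zdhhc17 (1.31), both palmitoyltransferases, differed most, and Ppt1, a lysosomal depalmitoylating enzyme, was higher in glia (-1.09). By their means Zdhhc2 and Zdhhc17 were higher in every neuronal type than in both glial types, which did not hold for all 7. The median over the list was 0.25, beside -0.18 over all genes tested, and that over the partner list was 0.61.

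Between astrocytes and microglia, 39.8% of genes were higher in astrocytes and 36.3% in microglia, 76.1% in all. All astrocyte libraries in this fit were of batch 1 and all microglia libraries of batch 2. The fit held no batch term, so cell type and batch cannot be told apart in it. With all 22 libraries and a batch term, 15568 genes were called. That fit treats both libraries of each resequenced replicate as independent. Of the 10 partners tested 6 were higher in astrocytes and 4 in microglia, among them Coro1a (-4.44), a leukocyte actin regulator, and Marcks (-3.22). Of the palmitoylation enzymes 5 were higher in astrocytes, led by Zdhhc2 (1.63), and 4 in microglia, led by Zdhhc5 (-0.92). The list medians were 0.59 and 0.24, beside 0.04 over all genes.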

How the data were processed

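Adapters were removed with cutadapt 3.5, and kallisto 0.46.2 estimated abundances on GENCODE M24 transcripts. The authors deposited the estimated count (raw) and TPM of each transcript. Gene levels are TPM summed over transcripts, and shares are percent of that sum. Structures and sequences came from GENCODE M21 on GRCm38, which held all 13 transcripts under the same versioned identifiers and lengths. Estimated counts were summed per gene, rounded and tested with edgeR 4.0.16 in R 4.3.3 (quasi-likelihood, TMM, filterByExpr, threshold 0.05 after Benjamini-Hochberg) in 1 fit of 6 groups. DESeq2 1.42.0 was an alternative. On simulated neurons-versus-glia counts, edgeR recovered 200 of 200 genes changed 4-fold among 19501 and called 7 unchanged ones. Apart from these 200 genes the simulated libraries shared a common mean profile. The simulation therefore does not describe a contrast over 6 cell types that differ widely. Shares, levels and sequences were computed with Python 3.11.15 (pandas 2.3.3, numpy 2.4.6). Members, gene lists and tests were chosen with earlier results of these data known. Transcripts were named where a cell type mean share reached 5%, the genes of the lists were named by example, and for likeness genes among the 5 highest r. Some genes of these rules are not reported here. Strand settings of kallisto were not given in the sources used here. Whether reads of the opposite strand entered the estimates was not tested.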

Additional observations from a re-analysis of the deposited data

How the results depend on the processing

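The difference in long C-terminus share between the neuronal mean and astrocytes, 75.3 percentage points, moved to 72.2 points as a share of estimated counts, where longer transcripts weigh more, and lay between 74.7 and 75.9 points when leaving out 1 replicate. Taking the batch 2 library of resequenced replicates, or only protein-coding transcripts, changed it by less than the replicate spread. The log2 ratio of Gpm6b in astrocytes over the neuronal mean, 3.16, rose to 3.71 as TMM-scaled CPM, without the correction for length, and lay between 3.13 and 3.19 without 1 replicate. The Gpm6a share is 100% by construction. The 1244 transcripts called in the share background became 774 at a gene TPM of at least 10, since fewer were tested, and 2860 at 10 points. Of the 10 most similar genes, 5 stayed among the 5 nearest of their member when cell type means were the points. Alternatives for the resequencing difference were chosen after seeing the data. By edgeR, 17087 genes differed between neurons and glia and 15615 between astrocytes and microglia, with 16906 to 17391 and 15027 to 16025 without 1 replicate. With the replicate number as a block (replicate block) these were 17029 and 15498. The labels do not say whether samples of the same replicate number share animals. For dentate gyrus granule cells and layer V neurons, both by Rbp4-Cre, it is possible. Deviations of same-numbered samples correlated at -0.1 to 0.109 (median 0.039). These values pool 45 pairs over all cell types and cannot decide it for that pair. Each other alternative kept both counts within 1.5-fold. Microglia, cerebellar granule cells and interneurons had the fewest estimated Gpm6b counts, 3694 to 9079 per library against at least 10057 in the other types, which limits their transcript estimates. Leaving Aldh1l1 out of the astrocyte markers, an alternative chosen after seeing the data, lowered their highest share of the astrocyte mean in layer V neurons from 0.894 to 0.345%, and kept it at 0.395 to 4.53% in the other non-astrocyte types.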
